A study of Mus musculus with 4 samples.

Results

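Epithelial-mesenchymal transition (EMT) is the change in which an epithelial cell gives up its cell-cell junctions and takes on the shape, motility and matrix of a mesenchymal cell. It is driven by transcription factors of the Zeb, Snail and Twist families, which repress E-cadherin and other epithelial genes, often through E-box sequences. Loss of E-cadherin (Cdh1) and gain of N-cadherin (Cdh2), vimentin (Vim) and fibronectin (Fn1) are its usual markers. Ovol2, a zinc finger repressor of epithelia, is known to act against the transition in mouse skin and mammary epithelium, with Zeb1 among its described targets. The genes described here are 6 of the factors (Zeb1, Zeb2, Snai1, Snai2, Twist1 and Twist2) and 4 markers (Cdh1, Cdh2, Vim and Fn1). These 10 genes were chosen by name, out of 19938 genes with a probe set of their own, and each was found on the array by 1 probe set that names no other gene. All 10 passed the filter on low values, as did 14953 genes in all.

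Whole skin of female mouse embryos at stage E17.5, late gestation, was profiled with 4 Affymetrix arrays that read whole transcripts. The Ovol2 BT group (2 arrays) carried TRE-Ovol2-Flag, a tagged Ovol2 transgene under a tetracycline-responsive promoter, together with K5-tTA, in which the keratin 5 promoter drives the transactivator in the basal layer of the epidermis; its strain is given as FVB/N. The control group (2 arrays) carried TRE-Ovol2-Flag without the driver, or was wild type, and its strain is given as CB6F1. Each array held RNA of 2 mice. The labels speak of littermates but give the groups different strains, and an effect of strain and an effect of genotype cannot be told apart here. The arrays of a group are called biological replicates, with nothing on separate litters, so p-values measure the spread between these arrays.

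Ovol2 checked the labels: its intensity was 4367 and 3893 on the Ovol2 BT arrays, against 360 and 161 on the control arrays (log2 difference 4.0, SE 0.33, limma adjusted p = 0.00311). Median intensities lay between 123 and 132 over the 4 arrays. Skin markers were bright in both groups. The suprabasal keratin gene Krt10 was at 9303 and 8733 in Ovol2 BT and at 10654 and 9152 in control skin, and the dermal collagen gene Col1a1 at 9027 and 7317 in Ovol2 BT and at 7835 and 7405 in control skin. Of all genes tested, 144 passed an adjusted p of 0.05 (92 higher and 52 lower in Ovol2 BT). With 1 array left out there were 366 calls (220 higher and 146 lower, control replicate 1), 212 (100 higher and 112 lower, control replicate 2), 206 (135 higher and 71 lower, Ovol2 BT replicate 1) or 249 (137 higher and 112 lower, Ovol2 BT replicate 2), so the excess of higher calls was not kept without control replicate 2.

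Sequences linked to the factors are shown first as background, and binding to them was not tested. Zeb1 and Zeb2 transcripts are known targets of the microRNA miR-200 family and of miR-205. These mature sequences, from RefSeq (GRCm38.p6), are printed with the seed, bases 2 to 8, in capitals; the first 3 share the seed AAUACUG, the next 2 share AACACUG, and miR-205 has another. Their genes lie on chromosome 4 (miR-200a, miR-200b and miR-429), chromosome 6 (miR-200c and miR-141) and chromosome 1 (miR-205).
mmu-miR-200b-3p: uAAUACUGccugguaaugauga
mmu-miR-200c-3p: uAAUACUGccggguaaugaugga
mmu-miR-429-3p: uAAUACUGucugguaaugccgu
mmu-miR-200a-3p: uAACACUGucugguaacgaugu
mmu-miR-141-3p: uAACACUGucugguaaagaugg
mmu-miR-205-5p: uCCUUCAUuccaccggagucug

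The array has probe sets for 5 of these hairpins, not for single arms, and they were looked at after the rest of the results were known. Mir200c passed the filter on low values, with intensities of 115 and 107 in Ovol2 BT and 85.9 and 98.5 in control skin (log2 difference 0.23, SE 0.16, limma adjusted p = 0.643). The hairpins Mir200a, Mir200b, Mir141 and Mir205 lay among the dimmest 25% of genes and were read from the fit without the filter. There Mir200b was at 64.6 and 44.9 in Ovol2 BT and at 44.2 and 33.1 in control skin (log2 difference 0.37, adjusted p = 0.585). The remaining 3 had differences of 0.09 (Mir200a), -0.04 (Mir141) and 0.24 (Mir205), none passing the test.

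Of the members, only Snai1, Twist1, Twist2, Vim and Zeb2 were searched for promoter motifs, and Zeb1 was not. There were 8 windows of 300 bases, 4 for Zeb2 and 1 for each other gene. The windows ran from 250 bases before to 50 after a RefSeq start. They were searched on both strands for the E-box CACCTG, bound by Snail and Zeb factors, for the general E-box CANNTG, which includes it, and for CCGTTA, a core described for Ovol proteins. The only match was a single CACCTG in the Snai1 window, 126 to 121 bases before the start, while CACCTG occurs in 20.2%, CANNTG in 72.3% and CCGTTA in 2.76% of the 32851 windows of all genes. Snail1 has been described to bind its own promoter at an E-box, so the bases before the start are shown with the match in capitals (GRCm38.p6, chr2:167537945-167538194, plus strand).
Snai1: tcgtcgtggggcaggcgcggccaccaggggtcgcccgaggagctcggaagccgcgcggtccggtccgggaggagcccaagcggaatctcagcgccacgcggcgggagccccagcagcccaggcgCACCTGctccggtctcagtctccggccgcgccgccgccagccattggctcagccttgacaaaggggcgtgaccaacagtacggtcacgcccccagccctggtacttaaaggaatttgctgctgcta

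None of the 10 EMT factors and markers passed the test between Ovol2 BT and control skin. With limma, 0 of 10 had an adjusted p under 0.05, against 0.963% of all genes tested, and 0 of 10 had an unadjusted p under 0.05, against 10.4% of all genes (5.11% higher and 5.24% lower in Ovol2 BT). Their log2 differences ran from -0.37 (Snai1) to 0.34 (Snai2), with a median of -0.18 beside -0.04 for all genes tested. With the lowest 50% of genes left out, which kept all 10, the median of all genes was -0.09. The median size of the difference, without its sign, was 0.21 for the 10 genes and 0.19 for all genes. The 95% intervals of all 10 lay within a 2-fold change in either direction, spanning -0.82 to 0.81 on the log2 scale at their widest, as did the intervals of 88.6% of all genes. Each interval is for a single gene and is not adjusted for the number of genes. Values were tested as log2(intensity + 16), a scale that understates changes of dim genes.

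**Figure D1:**
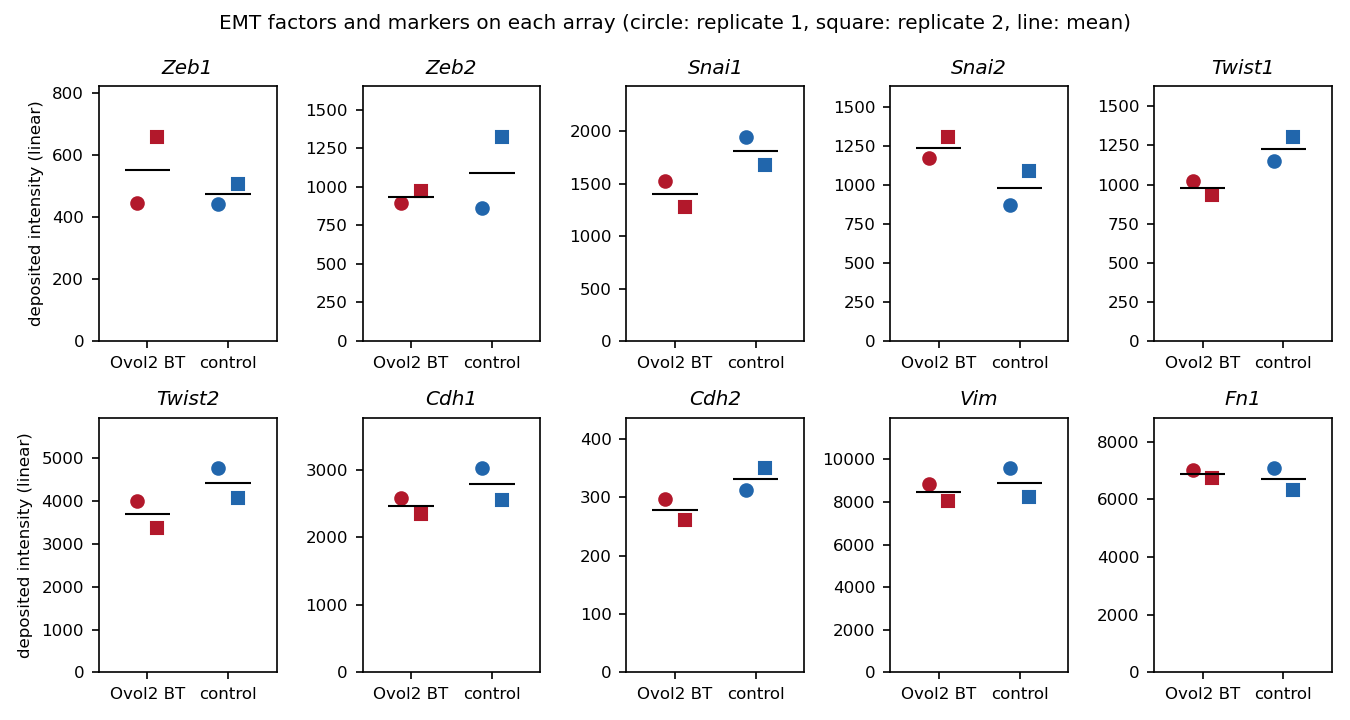
Deposited linear intensity (vertical axes, starting at 0, one scale per gene) of the 10 genes on the 2 Ovol2 BT arrays (red) and the 2 control arrays (blue); horizontal lines are group means. Both Ovol2 BT arrays lay above both controls for Snai2, below both for Snai1, Twist1, Twist2 and Cdh2, and the groups overlapped for the other 5 genes.

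The Zeb factors, which bind paired E-boxes through clusters of zinc fingers, did not differ detectably. Zeb1 was at 446 and 658 in Ovol2 BT and at 443 and 507 in control skin. Ovol2 BT replicate 2 stood highest, while the other Ovol2 BT array lay between the controls. The log2 difference of Zeb1 was 0.19 (SE 0.24, 95% interval -0.37 to 0.74, limma adjusted p = 0.803), and it was -0.09 without Ovol2 BT replicate 2. Zeb2 was at 892 and 972 in Ovol2 BT and at 859 and 1322 in control skin, so both Ovol2 BT arrays fell between the controls. Its log2 difference was -0.19 (SE 0.25, interval -0.75 to 0.36, adjusted p = 0.798), and control replicate 2 alone set its sign, the value being 0.12 without that array. The lone group array in such a fit is assumed to vary like the others.

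The Snail factors stood at opposite ends of the 10 genes. Snai1, which encodes the first Snail repressor described for Cdh1, was at 1527 and 1278 in Ovol2 BT and at 1945 and 1679 in control skin. Both Ovol2 BT arrays were below both controls, with a log2 difference of -0.37 (SE 0.20, interval -0.82 to 0.09, adjusted p = 0.573). Snai2, the gene of the related repressor Slug that basal keratinocytes also use, was at 1169 and 1305 in Ovol2 BT and at 873 and 1090 in control skin. Here both Ovol2 BT arrays were above both controls, with a log2 difference of 0.34 (SE 0.21, interval -0.14 to 0.81, adjusted p = 0.613). Neither passed the test. The third Snail gene of mouse, Snai3, was left out by the filter on low values, with 55.6 and 53.8 in Ovol2 BT and 47.1 and 42.5 in control skin (log2 difference 0.22 in the fit without the filter, adjusted p = 0.663).

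The Twist factors, basic helix-loop-helix proteins that bind E-boxes as dimers and are known from dermal mesenchyme, had values below the controls in both cases without passing the test. Twist1 was at 1026 and 935 in Ovol2 BT and at 1153 and 1304 in control skin (log2 difference -0.32, SE 0.20, interval -0.77 to 0.14, adjusted p = 0.613). Twist2, also called Dermo1, was at 4000 and 3378 in Ovol2 BT and at 4757 and 4077 in control skin (log2 difference -0.26, SE 0.17, interval -0.65 to 0.13, adjusted p = 0.630). For Twist2 the gap between Ovol2 BT replicate 1 and control replicate 2 was small compared with the gaps within each group.

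E-cadherin and N-cadherin, whose exchange marks the transition, showed no detectable exchange. Cdh1, the adhesion molecule of epithelial adherens junctions, was at 2585 and 2349 in Ovol2 BT and at 3022 and 2560 in control skin. The groups overlapped, with a log2 difference of -0.17 (SE 0.18, interval -0.59 to 0.24, adjusted p = 0.752). Cdh2, the cadherin of mesenchyme, nerve and muscle, was at 297 and 261 in Ovol2 BT and at 313 and 349 in control skin. Both Ovol2 BT arrays were below both controls, with a log2 difference of -0.24 (SE 0.21, interval -0.70 to 0.23, adjusted p = 0.706).

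Vimentin and fibronectin had the smallest differences of the 10. Vim, the intermediate filament gene of mesenchymal cells, was at 8869 and 8063 in Ovol2 BT and at 9578 and 8245 in control skin, with a log2 difference of -0.07 (SE 0.14, interval -0.39 to 0.25, adjusted p = 0.873). Fn1, a matrix glycoprotein gene, was at 7008 and 6734 in Ovol2 BT and at 7068 and 6306 in control skin, with a log2 difference of 0.04 (SE 0.14, interval -0.28 to 0.37, adjusted p = 0.931). For both genes replicate 1 was brighter than replicate 2 in each group. Vim and Fn1 were the only ones of the 10 whose intervals also lay within a 1.5-fold change.

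**Figure D2:**
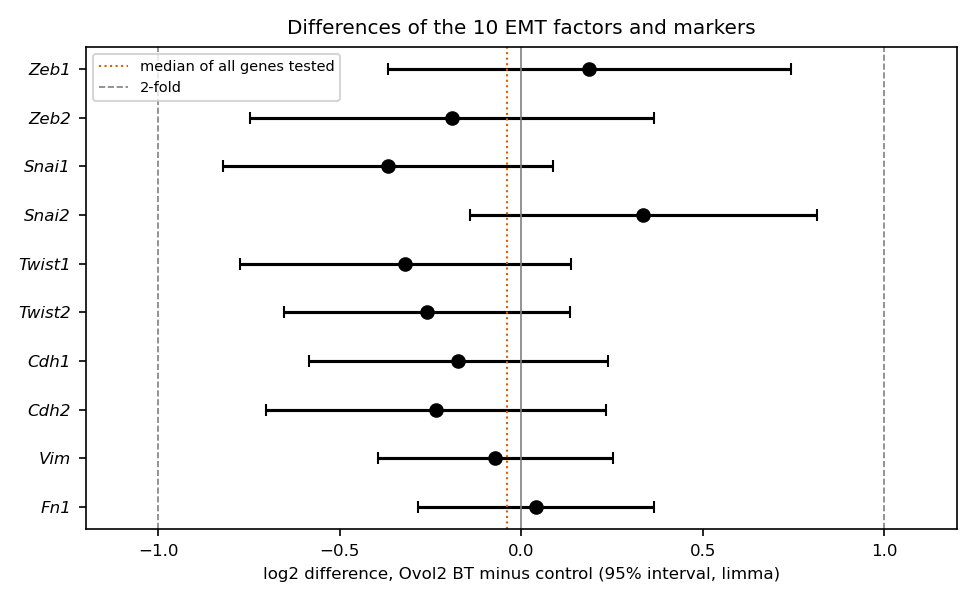
Log2 difference, Ovol2 BT minus control (horizontal axis), with its 95% interval from limma for each of the 10 genes; dashed lines mark a 2-fold change, and the dotted line marks the median of all genes tested, -0.04. All intervals cross 0 and none reaches a dashed line.

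In 5 of the 10 genes the groups did not overlap, 1 with Ovol2 BT above control and 4 below. Among all genes tested the groups did not overlap in 42.3%, with Ovol2 BT above in 20.4% and below in 21.9%, so 5 of 10 is close to the background. With 1 array left out, 0 of 40 values of the 10 genes passed the test (lowest adjusted p = 0.535, Snai1 without Ovol2 BT replicate 1). Zeb2 and Twist1 without control replicate 1, Snai1 and Snai2 without control replicate 2, and Zeb1 and Snai1 without Ovol2 BT replicate 1 had intervals that reached past a 2-fold change.

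The differences are relative to the scale of the deposited values, and centring the arrays on a list adds the same amount to every gene. When each array was centred on the mean level of a list of 14 tested cell junction genes, a choice made after seeing the data, all genes shifted up by 0.30 and the count of calls was 194 higher and 20 lower. Zeb2, Twist2, Cdh1, Cdh2 and Vim then had differences above 0 (0.11, 0.04, 0.13, 0.07 and 0.23), and none of the 10 passed the test (lowest adjusted p = 0.112, Snai2). Under this centring the intervals of Zeb1 and Snai2 reached past a 2-fold increase. Centring on the median level of this list was done before the filter on low values, so it also included Pkp2, which the filter left out. The middle gene was Ctnna1 on both Ovol2 BT arrays (980 and 1189), Dsc3 on control replicate 1 (1764) and Ctnnd1 on control replicate 2 (1783). This centring thus set different genes against each other, while Ctnna1 itself differed by -0.26. All genes then shifted up by 0.71, and 8609 were called higher and 41 lower. Zeb1, Snai2, Vim and Fn1 were then among the genes called higher (adjusted p = 0.00756, 0.00161, 0.0298 and 0.0126). The distance of the 10 genes from the median of all genes is the same under either centring, so these changes of sign say nothing of them relative to the other genes.

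**Figure D3:**
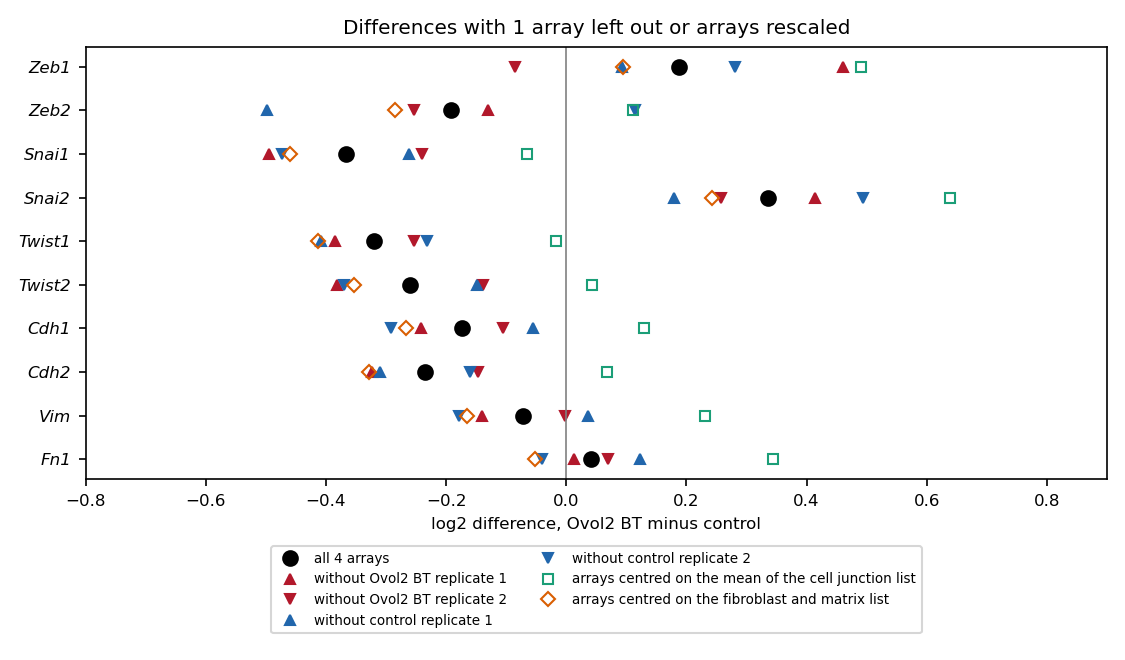
Log2 difference, Ovol2 BT minus control (horizontal axis), of the 10 genes with all 4 arrays (black), with 1 array left out (triangles), and after centring on the mean of the cell junction genes or on the fibroblast and matrix genes (open symbols). Snai2 stayed above 0 in every setting drawn, Snai1 and Twist1 stayed below 0, and the other 7 genes had values on both sides of 0.

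Differences between members within an array do not depend on scaling. The following pairs were chosen after the values were seen and carry no test for that reason. The log2 value of Snai2 minus that of Snai1 was -0.38 and 0.03 in Ovol2 BT and -1.14 and -0.62 in control skin, a shift of 0.70. The groups could not overlap here, because Snai2 alone was above both controls and Snai1 alone below them on both Ovol2 BT arrays. The gap between replicates of this quantity was 0.41 within Ovol2 BT and 0.53 within control. Cdh1 minus Vim was -1.77 on both Ovol2 BT arrays and -1.66 and -1.68 on the control arrays, a shift of -0.10. Cdh1 minus Fn1 was -1.43 and -1.51 in Ovol2 BT and -1.22 and -1.30 in control skin, a shift of -0.21, without overlap. Cdh1 minus Cdh2 overlapped, at 3.06 and 3.09 in Ovol2 BT and 3.21 and 2.82 in control skin. Zeb1 minus Zeb2 and Twist1 minus Twist2 overlapped as well, with shifts of 0.38 and -0.06.

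Other transcription factors of the transition gave 1 call. Of 21 tested genes 1 was called lower and none higher (0.348% of all genes were called lower and 0.615% higher), with a median of -0.16. At an unadjusted p under 0.05, 1 was higher and 2 were lower. Foxc1, a forkhead factor of mesenchyme and hair follicle, fell to 53.6 and 41.8 in Ovol2 BT, against 91.9 and 117 in control skin (log2 difference -0.92, SE 0.17, limma adjusted p = 0.0416). Ranked from dimmest to brightest, Foxc1 stood at 1.74% of the genes tested, and it passed the filter on low values only through its control arrays. Its call ended without control replicate 2 (adjusted p = 0.0587) or Ovol2 BT replicate 2 (0.0594), without the filter (0.0771), without a variance trend (0.135), with arrays centred on fibroblast and matrix genes (0.0761) and with both junction centrings. The chromatin protein gene Hmga2 (-0.76, adjusted p = 0.217), the homeobox gene Gsc (0.45, adjusted p = 0.422) and Foxc2 (0.18, adjusted p = 0.756) were not called. Tcf4, an E protein that pairs with Twist factors, was at -0.12 (adjusted p = 0.842).

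Cofactors through which Snail and Zeb proteins repress, together with enzymes that modify them, gave 0 calls in 17 tested genes (0 at an unadjusted p under 0.05). Of all 14953 genes tested, 8310 had negative differences (median -0.04, or -0.09 with the lowest 50% of genes left out). In this list, differences were negative in 15 of the 17 (median -0.21). The deacetylase gene Hdac2 (-0.44, adjusted p = 0.643), the chromatin remodeller gene Smarca4 (-0.32, adjusted p = 0.592), and the lysyl oxidase genes Loxl3 (0.28, adjusted p = 0.675) and Lox (0.14, adjusted p = 0.837) marked its ends.

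Among epithelial identity genes 1 of 30 was called higher and none lower, with a median of -0.21. At an unadjusted p under 0.05, 1 was higher and 3 were lower, against 5.11% and 5.24% of all genes. Krt8, a keratin of simple epithelia, rose to 2181 and 1597 in Ovol2 BT, against 448 and 351 in control skin (log2 difference 2.19, SE 0.24, 4.56-fold, adjusted p = 0.00499). Krt18, its usual partner keratin, was at 237 and 119 in Ovol2 BT and at 253 and 157 in control skin (-0.22, adjusted p = 0.820). Grhl2, a Grainyhead factor known to activate Cdh1, was at 194 and 186 in Ovol2 BT and at 361 and 403 in control skin. Its log2 difference of -0.95 (SE 0.20) missed the threshold with an adjusted p of 0.0831. The membrane protease gene Prss8 was at -0.77 (adjusted p = 0.491), and was -1.30 without control replicate 2, where it passed the test (adjusted p = 0.00960), and -0.24 without control replicate 1. The tight junction gene Cldn4 was at 0.27 (adjusted p = 0.746).

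Cadherins and catenins other than the members gave 0 calls in 18 tested genes (2 at an unadjusted p under 0.05, 1 in each direction; median -0.08). P-cadherin (Cdh3), the cadherin of basal keratinocytes and hair placodes, was at 881 and 663 in Ovol2 BT and at 1339 and 1288 in control skin. Both Ovol2 BT arrays were below both controls, and the log2 difference of -0.77 (SE 0.22) did not pass the test (adjusted p = 0.235). The cytoplasmic partners of Cdh1 had differences of -0.29 (Ctnnb1, adjusted p = 0.594) and -0.26 (Ctnna1, adjusted p = 0.686). At the other end stood Ctnnd2 (0.52, adjusted p = 0.442) and Cdh13 (0.29, adjusted p = 0.644). Cdh11, the cadherin of mesenchyme, was at -0.08 (adjusted p = 0.912).

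Mesenchymal effector genes were called 0 times in 33 tested (2 at an unadjusted p under 0.05), with 18 differences above 0, 15 below and a median of 0.01. The hyaluronan receptor gene Cd44 (-0.71, adjusted p = 0.233) and the surface protein gene Thy1 (-0.31, adjusted p = 0.618) were lowest, while desmin (Des, 0.41, adjusted p = 0.433) and tenascin C (Tnc, 0.30, adjusted p = 0.644) were highest. The intermediate filament genes of mesenchyme and nerve had 0 calls in 7 (1 at an unadjusted p under 0.05, Des), with Nes at -0.30 (adjusted p = 0.657), Synm at -0.21 (adjusted p = 0.692) and Nefh at 0.14 (adjusted p = 0.778). Genes of fibronectin's receptors and matrix partners had 0 calls in 24 and 0 at an unadjusted p under 0.05 (median 0.00). Their ends were the syndecan gene Sdc4 (-0.37), the integrin gene Itga8 (-0.37), the transglutaminase gene Tgm2 (0.41) and the latent TGF-beta binding protein gene Ltbp3 (0.39), with adjusted p-values of 0.556 to 0.592.

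Signals that can start the transition gave 0 calls in 28 tested genes (4 at an unadjusted p under 0.05, 3 of them lower), with a median of -0.20. The growth factor genes Pdgfa (-0.65, SE 0.18, adjusted p = 0.234) and Tgfb2 (-0.54, adjusted p = 0.442) were lowest. Hgf, the ligand of the Met receptor, was at 0.44 (adjusted p = 0.437) and the TGF-beta co-receptor gene Tgfbr3 at 0.14 (adjusted p = 0.803).

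**Figure D4:**
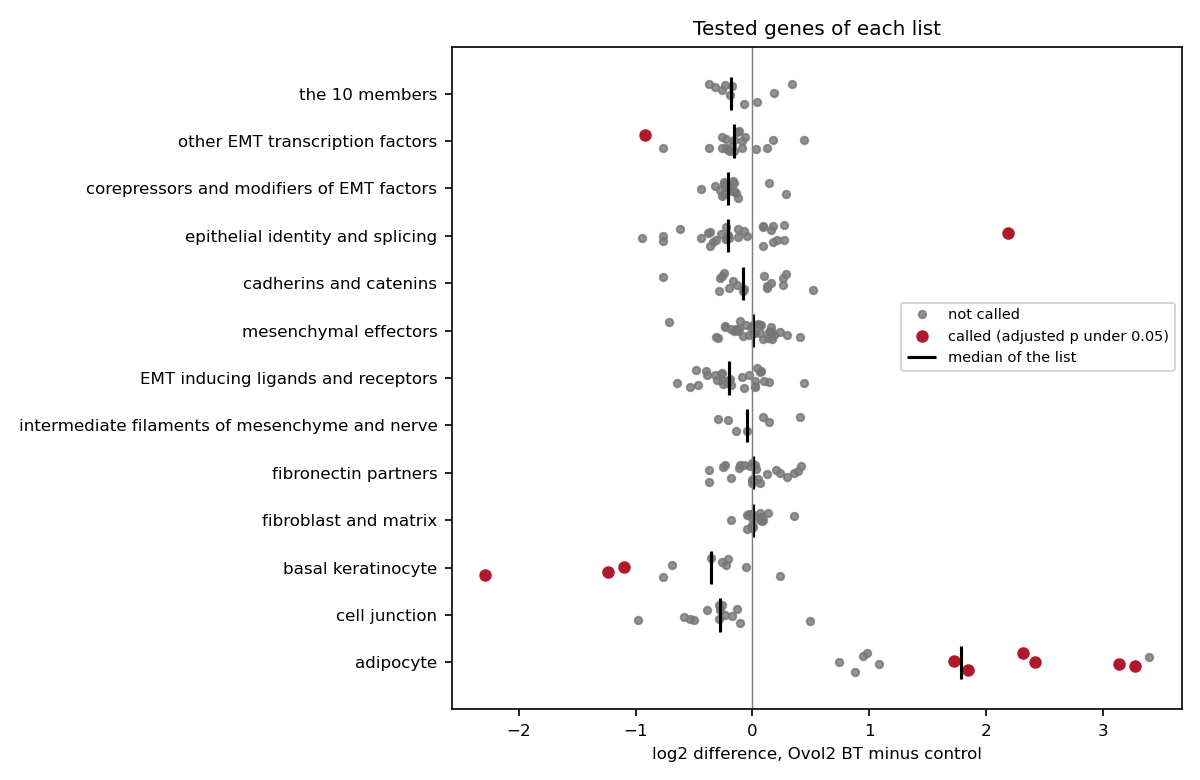
Log2 difference, Ovol2 BT minus control (horizontal axis), of every tested gene in each list, with called genes in red and the list median as a black bar. The 10 EMT factors and markers lie within 0.4 of 0, while Foxc1 and Krt8 are the only calls in the 8 lists of EMT genes below them; the lowest 4 rows are cell type and junction lists.

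Skin was measured whole, so fewer cells of a type and less RNA per cell cannot be told apart, and the values do not say which cells held the transcripts. The fibroblast and matrix list, without the members, had 0 calls in 16 genes (0 at an unadjusted p under 0.05). Its summed intensity was 72042 and 70719 in Ovol2 BT and 70130 and 69257 in control skin. Basal keratinocyte markers were called lower in 3 of 11 genes (Krt5, Krt14 and Krt15), against 0.348% of all genes, and 5 were lower at an unadjusted p under 0.05. Their sums were 15226 and 13084 in Ovol2 BT and 27762 and 25332 in control skin. The cell junction list was called in 0 of 14 genes (4 at an unadjusted p under 0.05), with sums of 28137 and 27367 in Ovol2 BT and 36435 and 32956 in control skin. Adipocyte markers were called higher in 6 of 12, against 0.615% of all genes, and all 12 were higher at an unadjusted p under 0.05. Their sums were 37505 and 35951 in Ovol2 BT and 16668 and 11648 in control skin. Of the other lists, melanocyte markers had 1 call in 7 (Tyr, lower), and 4 were lower at an unadjusted p under 0.05. Tyr (54.6 and 58.0 in Ovol2 BT, 117 and 178 in control skin) passed the filter on low values only through its control arrays. The called adipocyte gene Cidea (788 and 457 in Ovol2 BT, 67.3 and 42.8 in control skin) passed it only through its Ovol2 BT arrays. No calls were made among suprabasal keratinocyte (10 genes, median -0.25), skeletal muscle (10 genes, 0.20), endothelial and mural (10 genes, 0.14), Schwann cell (5 genes, -0.24) and immune cell (8 genes, 0.21) markers. The part of these shifts in the values of the 10 genes was not tested.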

How the data were processed

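The deposited intensities are linear and 1 per probe set. Per the submitters' processing notes, the authors used PLIER 2.0 in Affymetrix Expression Console 1.1.1. For background correction, scaling between arrays and genome build, the sources used here give nothing, and there are no detection calls. Of 35557 probe sets, 21789 name 1 gene in the platform annotation, 1621 several and 12147 none; 21698 matched RefSeq (GRCm38.p6) by Entrez ID. Where a gene had several, the probe set of highest mean was kept. Values were tested as log2(intensity + 16), after leaving out the 25% of genes with the lowest mean, by a two-sided limma test (version 3.58.1, R 4.3.3). It used lmFit and then eBayes with trend, had 6.94 prior and 2 residual degrees of freedom, and adjusted p over 14953 genes after Benjamini and Hochberg. The number of arrays limits the precision. Python 3.11.15 and matplotlib 3.10.9 were used for sequences and plots.

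The 10 genes and all lists were chosen with earlier results of these data known. Genes named are the 10 members, Ovol2, called genes and the 2 highest and 2 lowest of each EMT list, and near relatives; Krt18, Krt10, Col1a1 and the hairpins were added afterwards. Lists were described by counts and medians, with no set test. The alternatives were another pseudocount (1 or 64), another filter, normalization, centring or variance trend, the mean of probe sets, a threshold of 0.10, the replicate number as a block, leaving out each array in turn and, chosen after seeing the data, centring on the mean of the cell junction genes.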

Additional observations from a re-analysis of the deposited data

How the results depend on the processing

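Of 170 values of the 10 genes under alternatives, 150 kept their direction and stayed uncalled and 17 changed sign. A further 3 became calls without a change of sign (Zeb1, Snai2 and Fn1), and Vim did both. All 4 calls came from centring on the median of the cell junction genes, where the middle gene differed between the groups. The count of 144 called genes was 94 with arrays centred on fibroblast and matrix genes, 8650 with centring on the median of cell junction genes and 671 with the replicate number as a block (323 higher and 348 lower); with 1 array left out it ranged from 206 to 366. The labels do not say that numbers pair the arrays (across genes, arrays with the same number had deviations that correlated with r = 0.41). The replicate block called none of the 10 (Snai1 adjusted p = 0.161), but called Cd44, Cdh3, Grhl2, Hmga2, Pdgfa and Prss8 (adjusted p = 0.0238, 0.0192, 0.00610, 0.0298, 0.0226 and 0.0238).

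Signs changed as follows. With arrays centred on fibroblast and matrix genes Fn1 was at -0.052. With 1 array left out, the values ranged from -0.086 (Ovol2 BT replicate 2) to 0.46 for Zeb1, from -0.50 to 0.12 (control replicate 2) for Zeb2, from -0.18 to 0.036 (control replicate 1) for Vim, from -0.041 (control replicate 2) to 0.12 for Fn1, from -0.11 (control replicate 1) to 0.39 for Lox, from -0.057 (control replicate 2) to 0.61 for Cldn4, from -0.039 (Ovol2 BT replicate 2) to 0.32 for Nefh, from -0.32 to 0.17 (control replicate 2) for Cdh11 and from -0.26 to 0.027 (control replicate 2) for Tcf4. Krt18 ranged from -0.68 to 0.23 and was above 0 without control replicate 1 (0.094) or Ovol2 BT replicate 2. Centring on the median of junction genes, which adds 0.71 to every gene, gave Zeb2 0.52, Snai1 0.34, Twist1 0.39, Twist2 0.45, Cdh1 0.53, Cdh2 0.47, Vim 0.64, Ctnnb1 0.42, Hdac2 0.27, Itga8 0.33, Nes 0.41, Pdgfa 0.061, Sdc4 0.33, Smarca4 0.39, Synm 0.50, Tgfb2 0.17, Thy1 0.39, Krt18 0.48, Cdh11 0.63, Tcf4 0.59 and Ctnna1 0.45. Centring on the mean of the tested junction genes gave Zeb2 0.11, Twist2 0.043, Cdh1 0.13, Cdh2 0.068, Vim 0.23, Ctnnb1 0.015, Nes 0.0067, Synm 0.095, Krt18 0.080, Cdh11 0.23, Tcf4 0.19 and Ctnna1 0.043. Krt8 and Ovol2 were called in all 17 alternatives run on single genes. With 2 arrays a group and no detection calls, changes smaller than the intervals given cannot be told from 0.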
